A study of Saccharomyces cerevisiae with 3 samples.

Results

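The data described here are the RNA 3' ends mapped at or after position 958 of 3 PGK1 reporter mRNAs of budding yeast (Saccharomyces cerevisiae). The members are all positions listed from 958 on in the 3 deposited tables, where positions count from the ATG and a position that is not listed counts as 0 ends. Position 958 is the line beside which the authors' deposited table of the CGA reporter carries a side calculation. That rule gave 314 of 683 listed positions in the CGA reporter, 293 of 661 in the AAA reporter and 465 of 855 in the stem-loop reporter, or 1072 of 2199 in all. The groups are 3 strains with 1 library each: a reporter with (CGA)12, a reporter with (AAA)12 and a reporter with a stem loop. All 3 reporters were expressed in BY4741, a standard laboratory strain, carrying the ski2delta deletion. The cultures grew without added treatment, to an optical density of about 0.8 in defined medium lacking uracil, with galactose and raffinose at 2% each, and all 3 strains lack SKI2. Total RNA of whole cells was ligated to an adenylated DNA oligonucleotide and amplified from a primer at position 585 of PGK1. The tables list few ends before that position: 22 in the CGA, 15 in the AAA and 62 in the stem-loop reporter.

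PGK1 (YCR012W) encodes phosphoglycerate kinase, a glycolytic enzyme. In no-go decay a ribosome halts on the mRNA, trailing ribosomes run into it, and the mRNA is cut near the queue. The upstream piece is then degraded from its new 3' end by the cytoplasmic exosome with the Ski complex, whose helicase is Ski2, so that in cells without Ski2 such upstream pieces persist. CGA codons pair with their arginine tRNA through an inosine wobble pair and are decoded slowly in yeast. AAA codons encode lysine and make an adenosine tract in the mRNA, and a stem loop is a folded obstacle in the path of the ribosome. These are background facts and no value below tests them.

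From position 958 on, the CGA reporter held 17819 ends of 7282449, the AAA reporter 5356 of 4154995 and the stem-loop reporter 729745 of 4870458. As a share of each table's total this was 0.245% in the CGA reporter (95% Wilson interval 0.241 to 0.248), 0.129% in the AAA reporter (0.126 to 0.132) and 14.98% in the stem-loop reporter (14.95 to 15.01). Both codon-repeat reporters had only a small remainder here, and the stem-loop reporter a sizeable part of its ends. The order of the codon-repeat reporters turns on the exact boundary: placed 3 nt upstream, it gives 0.405% for the CGA and 0.589% for the AAA reporter. Position 957 alone held 7129 CGA and 13819 AAA ends. Each reporter has 1 library, so replicates are lacking and differences between reporters carry no test. The intervals cover counting error only, and reads that are copies of 1 molecule count separately in them. A count of 0 allows up to 3 counts, which is 0.0168% of the CGA, 0.0560% of the AAA and 0.000411% of the stem-loop ends from position 958 on.

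The interval that 12 codons occupy when counted from position 958 runs to position 993, 36 nt in all. It is called the repeat interval below. No reporter sequence was used here, so this interval is an assumption that rests on the labels and the authors' side calculation. It held 54.5% of the CGA ends from position 958 on (53.8 to 55.2), 8.51% of the AAA ends (7.80 to 9.29) and, at the same coordinates, 55.6% of the stem-loop ends (55.5 to 55.7). As a share of the library it held 0.133% in the CGA reporter, 0.01097% in the AAA reporter and 8.33% in the stem-loop reporter. CGA over AAA was thus 12.1-fold on the scale of library shares, and the spread between cultures is not known. That fold rests on the assumed start: with the 36 nt placed 3 nt upstream it was 0.624 (21413 CGA and 19568 AAA ends), so the direction turned, and 3 nt downstream it was 34.4 (4766 and 79 ends). Without position 959 the AAA share of ends in the repeat interval was 4.02%.

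**Figure D1:**
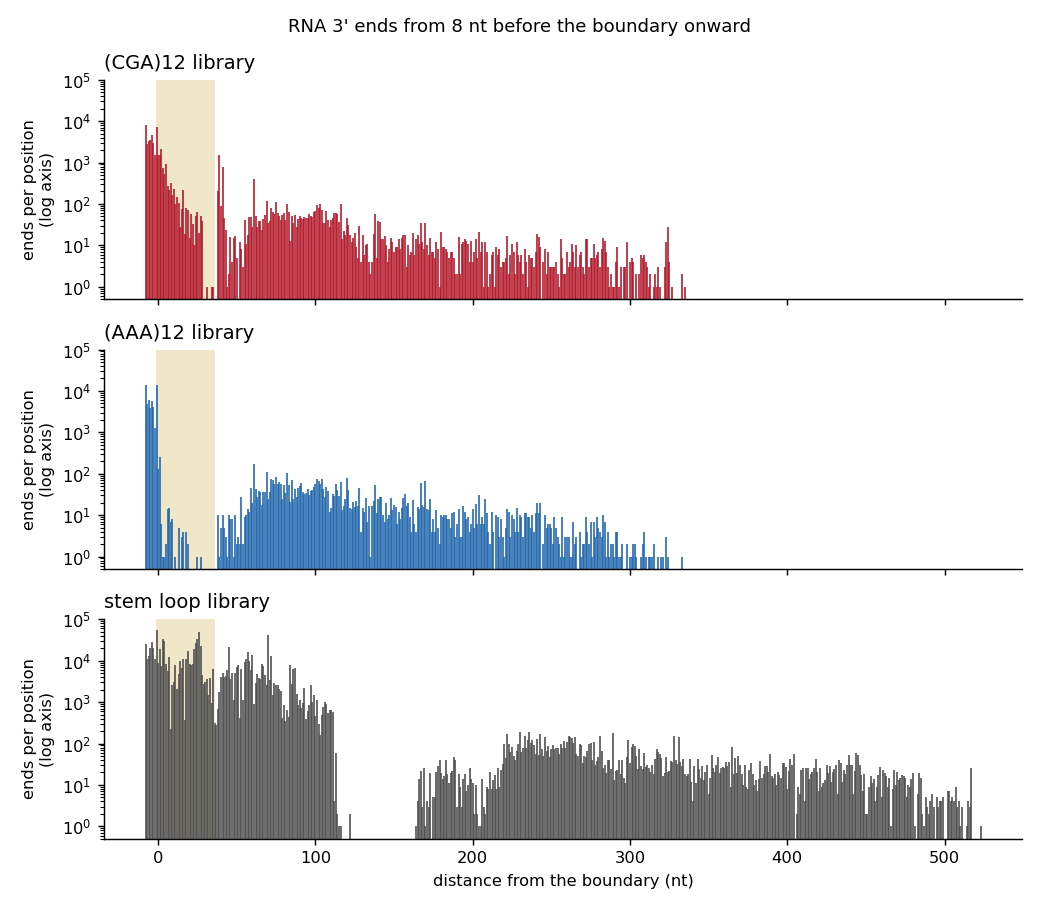
Ends per position (log axis) against the distance from position 958 in nt, for the CGA, AAA and stem-loop libraries from top to bottom; the shaded band is the 36-nt repeat interval and positions with 0 ends have no line. The CGA ends thin out through the band, the AAA ends stop within its first 2 positions apart from 75 ends, and the stem-loop ends continue to position 1069, run out, and resume at position 1124 at a lower level.

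At the boundary the drop had a different form in each library. In the CGA reporter the 10 nt from position 958 on held 828.8 ends per nt, against 3838 in the 10 nt before it, a 4.63-fold drop. In the AAA reporter these means were 43.5 and 7196 ends per nt, a 165-fold drop. In the stem-loop reporter they were 12904 and 19564 ends per nt, a 1.52-fold drop. Over 10 nt the AAA drop was thus the largest and the stem-loop drop the smallest. Between positions 957 and 958 alone the AAA drop was again the largest, but the CGA drop was the smallest. Position 958 held 1553 CGA ends, against 7129 at position 957, a 4.59-fold drop. It held 130 AAA ends against 13819, a 106.3-fold drop. It held 8968 stem-loop ends against 55825, a 6.22-fold drop. Position 957 was itself 18.2 times its local median in the AAA reporter and 5.08 times in the stem-loop reporter. That median takes in the 10 positions past the drop.

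Within the repeat interval the CGA ends declined codon by codon. Codon 1 of the repeat held 5148 ends (53.0% of the 9710 in the interval, 52.0 to 54.0), codon 2 held 2172 (22.4%), codon 3 held 805 (8.29%) and codon 4 held 491 (5.06%). Codons 1 to 3 together held 83.7% of the interval's ends (82.9 to 84.4). The decline was not strictly monotonic: codon 6 held 318 ends against 283 in codon 5, and codon 9 held 134 against 101 in codon 8. The rise at codon 6 came from position 974, which held 222 ends. Codon 10 still held 89 ends, all at positions 985 and 986, and codons 11 and 12 held 1 and 2.

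The place of the CGA ends within the codon changed along the repeat. In each of codons 1 to 3 the third nucleotide held the most ends and the second the fewest. Over these 3 codons the third nucleotide held 41.03% of ends (39.97 to 42.1), the first 31.2% and the second 27.7%. Position 960 carried the most ends of any CGA position from 958 on, with 2081 (11.7%). It thus supplied most of the 3334 third-nucleotide ends of these 3 codons. Positions 963 and 966, the third nucleotides of the next codons, held 931 and 322. The split after codon 3 was chosen after the values were seen, so the pooled shares only describe it. In each of codons 4 to 10 the third nucleotide held the fewest. There it held 12.1% of 1582 ends (10.6 to 13.8), against 39.6% at the first and 48.2% at the second nucleotide. The lead of the second nucleotide over the first, 763 against 627 ends, rests on position 974 with its 222 ends. The first nucleotide was the highest in 4 of these 7 codons and the second in 3. If the assumed interval is right, every codon compared here has the same bases.

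The AAA ends in the interval lay almost entirely at its first 2 positions. Position 958 held 130 ends and position 959 held 251, the most of any AAA position from 958 on, and together they made 381 of the 456 ends in the interval. Position 960 held 6 ends, and codon 2 held 4 in all. A small group followed in codon 3, with 14, 15 and 7 ends at positions 964 to 966, and position 967 held 8. From there to position 993 no position held more than 5 ends. Outside the first 2 positions the interval held 75 AAA ends, or 1.40% of those from position 958 on (1.119 to 1.752), against 6643 CGA ends or 37.3% (36.6 to 38.0) for the same 34 positions.

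**Figure D2:**
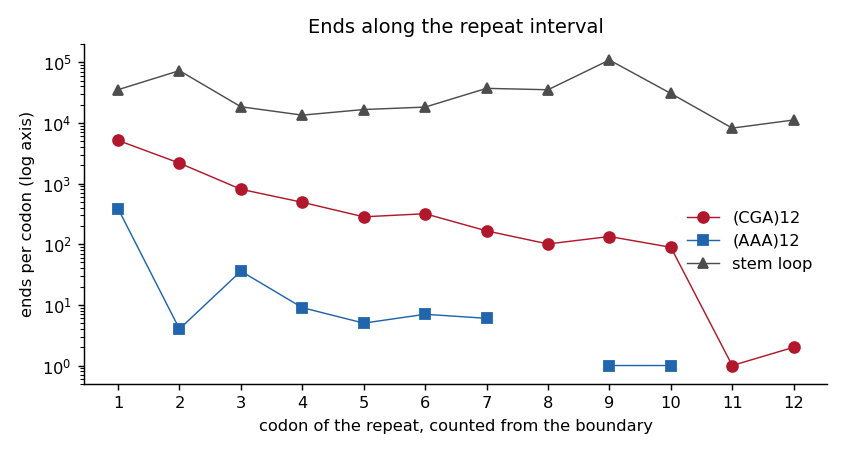
Ends per codon of the repeat interval (log axis), counted from position 958, for the CGA, AAA and stem-loop libraries; codons with 0 ends have no point. The CGA counts decline from 5148 in codon 1 to 89 in codon 10, the AAA counts lie between 0 and 36 after 387 in codon 1, and the stem-loop counts stay between 8208 and 108919.

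At the same coordinates the stem-loop reporter had no decline of this kind. Its codon sums there ranged from 8208 ends (positions 988 to 990) to 108919 ends (positions 982 to 984). Every one of the 36 positions held at least 229 ends, and the highest was position 984 with 48996 ends, or 6.71% of the stem-loop ends from 958 on (6.66 to 6.77). The sequence at these coordinates need not be that of the codon-repeat reporters, so the 3 profiles are set side by side and not matched base by base.

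Toward the end of the repeat interval the CGA ends nearly stopped, and the AAA ends, already sparse through most of the interval, gave out. Both libraries resumed at the same position. In the CGA reporter all 29 positions from 958 to 986 held at least 10 ends, and the 9 positions from 987 to 995 held 3 ends in all. In the AAA reporter the 30 positions from 966 to 995 each held fewer than 10 ends and 36 in all, and the 10 positions from 986 to 995 held none. Both libraries resumed at position 996, 3 nt past the assumed end of the repeat, with 204 ends in the CGA reporter and 10 in the AAA reporter. The stem-loop reporter held 22752 ends at positions 987 to 995. The read length, and how reads that lie within a repeat were aligned, are not stated in the labels or headers.

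Just past the gap the CGA reporter had a narrow cluster that was nearly missing from the AAA reporter. Positions 996 to 1001 held 204, 1508, 87, 794, 45 and 24 CGA ends, against 10, 1, 5, 10, 5 and 3 AAA ends. The cluster made up 14.9% of the CGA ends from position 958 on (14.4 to 15.5), against 0.635% of the AAA ends (0.455 to 0.886). Positions 997 and 999 ranked 4 and 6 among the CGA positions from 958 on, behind positions of the first 2 repeat codons. Position 998 between them held 87 ends. In the AAA reporter position 997 held 1 end, so the leading CGA position past the repeat had almost no AAA counterpart. After the cluster the CGA counts fell to between 0 and 17 ends at positions 1002 to 1012. The AAA counts at positions 1002 to 1012 lay between 1 and 10, apart from 27 at position 1011.

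Position 1019 was a peak in both codon-repeat libraries. It held 404 CGA ends, which was 11.2 times the median of the 10 positions on either side, and 172 AAA ends, which was 6.62 times that median. It ranked 9 in the CGA reporter and 2 in the AAA reporter among positions from 958 on. In the stem-loop reporter position 1019 held 913 ends, fewer than either neighbour (13975 at position 1018 and 2836 at position 1020). The 10 most frequent positions from 958 on held 58.1% of those ends in the CGA reporter (57.3 to 58.8), 21.5% in the AAA reporter (20.4 to 22.6) and 40.9% in the stem-loop reporter (40.8 to 41.0). In the CGA reporter 7 of these 10 positions lay in the repeat interval, in the AAA reporter 2 of 10 (958 and 959), and in the stem-loop reporter 8 of 10 at the same coordinates. The CGA and AAA lists shared 3 positions: 958, 959 and 1019.

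Further downstream the codon-repeat libraries became much alike in summed number and in pattern. From position 1030 to 1293 the CGA reporter held 4295 ends and the AAA reporter 4103, a ratio of 1.05, although the CGA reporter had 1.75 times as many ends in total. As a share of the library this was 0.05898% in the CGA reporter (0.0572 to 0.0608) and 0.0987% in the AAA reporter (0.0958 to 0.102), or -0.74 for CGA over AAA on the log2 scale. Relative to depth, then, the AAA reporter had more ends over the whole stretch, whereas the summed raw counts nearly coincided. By 36-nt window up to position 1281, the raw ratio of CGA to AAA ran from 0.724 (1102 to 1137) to 2.36 (1246 to 1281). In the window from 1246 to 1281 the CGA reporter had the higher library share, at 0.43 on the log2 scale. Position by position, 125 of 264 positions had more ends in the CGA reporter, 109 had more in the AAA reporter and 30 were equal. The largest difference was 41 ends, at position 1061, with 98 in the CGA reporter and 57 in the AAA reporter.

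The pattern along these positions was shared as well. Pearson's r of log2(count + 1) between the CGA and AAA libraries over these 264 positions was 0.86, and over all 300 positions from 994 to 1293 it was 0.78. On raw counts r was 0.22 over the 300 positions and 0.91 over the 264, the difference being the 36 nt next to the repeat, which hold the CGA cluster. The positions come from the same 2 libraries and share a broad decline, so r is given as a description with no p. The chi-square of the 2 profiles per degree of freedom, which is near 1 when they differ by counting noise alone, was 1.94 from 1030 to 1293, against 41.5 in the 36 nt after the repeat and 2573 from 606 to 957. By 36-nt window it was 1.61 from 1030 to 1065, 3.21 from 1066 to 1101 and 1.44 from 1102 to 1137. In the sparser windows from position 1138 to 1281 it lay between 1.06 and 1.34. For the same relative difference this chi-square grows with the number of ends per position. Its values are therefore not comparable between intervals of unlike depth. The CGA reporter held 20638 ends per nt from 606 to 957 and 16.3 from 1030 on. Pearson's r of log2(count + 1) from 606 to 957 was 0.83, close to the 0.86 from 1030 on.

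**Figure D3:**
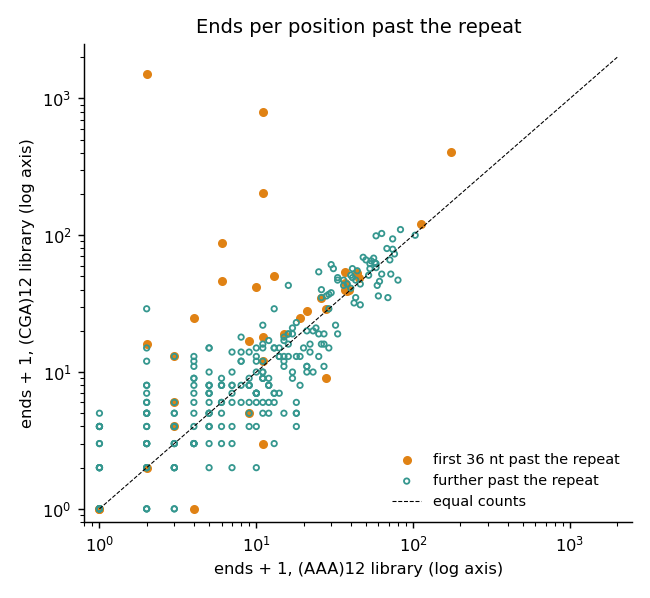
Ends + 1 per position in the CGA reporter (vertical, log axis) against the AAA reporter (horizontal, log axis), with filled points for the 36 nt after the repeat interval, open points for positions 1030 to 1293 and a dashed line at equal counts. The open points scatter about the line of equal raw counts, and several filled points, led by positions 997 and 999, lie far above it.

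Both codon-repeat profiles thinned out toward the end of the tables. In 36-nt windows from position 1030 on, the CGA reporter held 2049, 954, 419, 294, 218, 219 and 106 ends up to position 1281. The AAA reporter held 1815, 914, 579, 331, 278, 139 and 45 in the same windows. The last window held fewer ends than the first in both, although the CGA counts of 218 and 219 did not differ by more than counting error, and the raw count was higher in the AAA reporter in the 3 windows from 1102 to 1209. As library shares, CGA over AAA was -0.63, -0.75, -1.28, -0.98, -1.16, -0.15 and 0.43 on the log2 scale in these windows, the last 2 of which hold few ends. Of the ends past the repeat interval, the median lay at position 1033 in the CGA reporter and 1062 in the AAA reporter. The last listed positions were 1293 in the CGA reporter and 1291 in the AAA reporter. A last small CGA peak stood at position 1282 with 28 ends, next to 12 at position 1281, where the AAA reporter held 1 and 3 ends.

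The stem-loop ends continued past the coordinates of the repeats at a falling level and then ran out within a few nt. In 36-nt windows from position 958 the library held 405892, 236584 and 72720 ends up to position 1065. The decline through these windows was gradual. The 10 nt from position 1070 on then held 6.70 ends per nt, against 607.2 in the 10 nt before, a 90.6-fold drop. Position 1069 held 583 ends, position 1070 held 4 and position 1071 held 59. Position 1070 is the first after 606 with fewer than 10 ends and was chosen for that, so the step is a description. Across the same coordinates the CGA reporter held 44.7 ends per nt after and 54.2 before, and the AAA reporter 39.1 and 41.3. The run-out thus appeared in the stem-loop reporter and not in the other 2.

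Past the run-out the stem-loop table was nearly empty for 52 nt. Positions 1072 to 1123 held 11 ends in all, and the 41 positions from 1081 to 1121 held none. The same 52 positions held 925 CGA ends and 1046 AAA ends, with at least 1 end at each position in both libraries. From position 1124 to 1481 the stem-loop reporter again held 12074 ends, 0.248% of the library and 1.65% of its ends from 958 on (1.63 to 1.68). The level came back in 2 stages. The windows 1102 to 1137 and 1138 to 1173 held 5.44 and 13.8 ends per nt, and the window 1174 to 1209 held 86.6. The window from 1102 takes in part of the nearly empty stretch, so its mean understates the level from 1124 on. The later rise fell between position 1177, with 32 ends, and position 1178, with 100 ends. The highest position after the run-out was 1188 with 193 ends. The windows then held 2773, 1632, 1186, 873, 756, 691 and 288 ends up to position 1461.

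The stem-loop table also reached further than the others. It listed 3252 ends at 176 positions from 1294 to 1481, where the codon-repeat tables list none. The last position above 10 ends was 1475 with 25 ends, which stood alone: the 31 positions before it each held fewer than 10. Of the stem-loop ends past the run-out, the median position was 1235 and the 90th percentile 1382. What lies at these coordinates in each reporter is not known here, and the reporters need not have equal lengths.

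An isolated peak was defined as a position with at least 10 ends and at least 5 times the larger of 1 and the median of the 10 positions on either side. From position 958 on, 9 of 336 positions qualified in the CGA reporter (2.68%), 4 of 334 in the AAA reporter (1.20%) and 14 of 524 in the stem-loop reporter (2.67%). The same rule marked 3.41%, 1.99% and 2.27% of positions from 606 to 957 in the CGA, AAA and stem-loop libraries. The shares from 958 on were lower than those upstream in the CGA and AAA reporters and higher in the stem-loop reporter, and with counts this small they are read as near the background. At 3 times the local median, 26, 12 and 30 positions qualified in the CGA, AAA and stem-loop reporters. At 10 times, 8, 1 and 5 did. Of the 4 AAA peaks, 3 were also CGA peaks (996, 999 and 1019). Positions 996 and 999 held the minimum of 10 AAA ends each, and the remaining AAA peak was position 1128 with 68 ends. The remaining CGA peaks were 997, 998, 1000, 1096 (56 ends), 1281 and 1282. Positions 996 to 1000 are adjacent, as are 1281 and 1282, so the 9 CGA peaks are not 9 separate sites. At 996 to 1000 the local median was only 1.5 to 4.5, as it takes in nearly empty positions before them and low counts after. No upstream CGA peaks are adjacent, so the 2 CGA shares are not like for like. In the stem-loop reporter 1044 and 1045 are adjacent, as are 1124 and 1125. Neither codon-repeat library shared a peak from 958 on with the stem-loop reporter. With so small a share of positions called, this lack of overlap is not read as a result. Under the same rule upstream, positions 655, 679, 691, 811 and 892 were peaks in all 3 libraries.

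Among the stem-loop peaks, position 1028 stood out most in the stretch before the run-out. It held 41809 ends, 14.7 times the local median of 2844 and 5.73% of the stem-loop ends from 958 on (5.68 to 5.78). Position 984, the highest of all, was 6.997 times its local median and lay within a run of high counts at positions 981 to 985. Position 1003 held 21861 ends (5.30 times), and positions 1042, 1044 and 1045 held 7864, 6447 and 6687 (5.80 to 7.41 times). The other peaks lay at the edges of the empty stretch (1069, 1071, 1124, 1125 and 1127) or past it (1247 with 183 ends, 1289 with 143 and 1475). At an edge the local median is low because the neighbouring positions are empty.

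The frame shares from 958 on rested on few positions. Frame 1 is the first nucleotide of a codon if position 1 is the first base of the ATG. In the CGA reporter frame 1 held 36.02% of ends from position 958 on (35.3 to 36.7), against 42.1% from 606 to 957. In the AAA reporter it held 33.07% (31.8 to 34.3) against 40.7%, and in the stem-loop reporter 36.2% (36.1 to 36.3) against 40.7%. Without the fullest position of each interval the frame 1 shares were 40.8% against 40.6% for the CGA, 34.7% against 38.8% for the AAA, and 38.8% against 38.8% for the stem-loop reporter. The lower frame 1 share downstream thus depended on 1 position of each interval in the CGA and stem-loop reporters, and remained in the AAA reporter. It also depended on the upstream interval: in the 30 nt next to the boundary (928 to 957) frame 1 held 37.98% in the CGA, 37.7% in the AAA and 30.2% in the stem-loop reporter. The stem-loop share was there below its share from 958 on, and frame 3 led with 38.9%. Frame 1 held 40.1% of the CGA ends past the repeat interval (39.1 to 41.2), but 26.4% without position 997, when frame 3 led with 41.6%. In the AAA repeat interval frame 2 held 61.2% (56.6 to 65.5), and 13.7% without position 959.

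From 1030 on, where the fullest position held 109 of 4295 CGA ends and 102 of 4103 AAA ends, the codon-repeat libraries had almost equal frame shares. Frames 1, 2 and 3 held 34.1%, 31.3% and 34.7% in the CGA reporter, and 34.0%, 31.3% and 34.7% in the AAA reporter. From 1030 to 1481 the stem-loop reporter held 50.5% in frame 1 (50.2 to 50.9), and 41.7% without position 1030. Past its run-out it held 29.4% in frame 1 (28.6 to 30.2), 35.7% in frame 2 and 34.9% in frame 3. From position 958 to 1069 the stem-loop reporter held 36.3%, 35.5% and 28.1%. Frame 1 thus led in the stem-loop ends from 1030 on as a whole and was the lowest frame past the run-out.

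**Figure D4:**
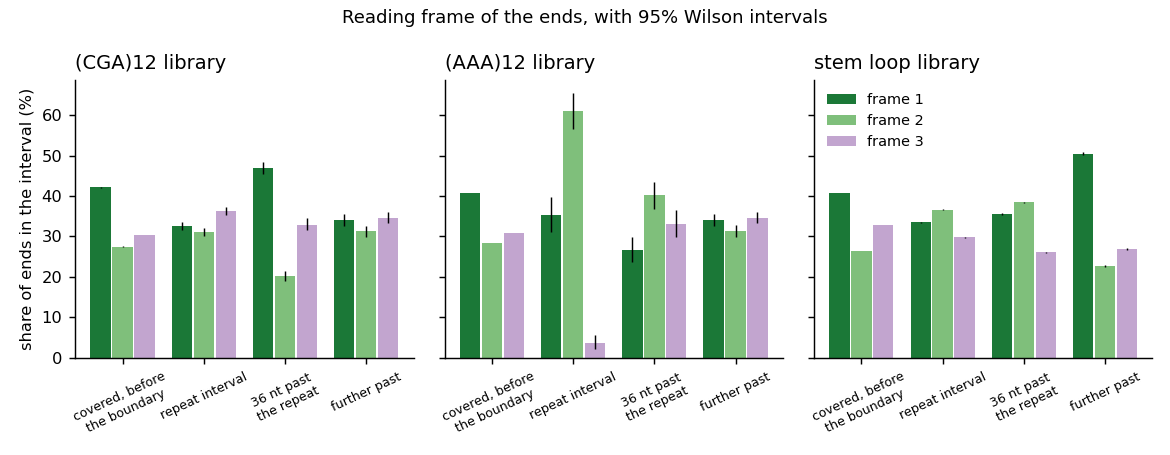
Share of ends in each reading frame (%, bars from 0, with 95% Wilson intervals) in 4 intervals of the CGA, AAA and stem-loop libraries: positions 606 to 957, the repeat interval, the next 36 nt, and 1030 on. Frame 1 leads before the boundary in all 3 libraries, frame 2 holds 61.2% of the AAA ends in the repeat interval, and the 3 frames lie between 31.3% and 34.7% from 1030 on in both codon-repeat libraries, where frame 1 holds 50.5% in the stem-loop reporter.

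The stem-loop profile from 958 to 1069 was also set against the codon-repeat profiles at offsets of 0 to 60 nt downstream, 36 nt being the length of the repeat interval. At an offset of 36 nt Pearson's r of log2(count + 1) over 112 positions was 0.27 with the CGA reporter and -0.05 with the AAA reporter. At an offset of 0 it was 0.08 and -0.30. The highest r among offsets of 0 to 60 nt was 0.47 at 56 nt for the CGA reporter and 0.43 at 58 nt for the AAA reporter. On raw counts the highest r was at 15 nt for the CGA reporter and again at 58 nt for the AAA reporter. With a running mean over 21 positions subtracted it was at 15 nt in both, with r of 0.34 and 0.31. No offset was thus settled by these profiles.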

How the data were processed

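RNA 3' ends were mapped in 3 libraries, 1 per reporter. For each, the authors deposited a table of raw read counts by position from the ATG, with a frame, per the file headers. The submitters' processing notes name bedtools, SAMtools 1.13, cutadapt 1.12 and Novoalign; settings, reference and build: not given in the sources used here. Totals were 4154995 to 7282449 reads. Unlisted positions counted 0. The deposited frame equalled that computed from the position at every member that had one (0 disagreements). It was missing for 13 CGA and 185 stem-loop members and was computed for all.

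The authors' deposited side calculation in the CGA table (17819 reads, equal to the sum from position 958 on) fixed the boundary. Its deposited share, 0.255%, implies a total of 7000000 reads. The share given here, 0.245%, uses the table's own total of 7282449. Shares with 95% Wilson intervals, 36-nt windows, isolated peaks and offsets of 0 to 60 nt were computed with Python 3.11.15, numpy 2.4.6, scipy 1.17.1 and matplotlib 3.10.9. No test was possible with 1 library per reporter. Covered positions start at 606. This is the latest of the 3 libraries' own first positions with at least 0.01% of their ends. The named positions are the 10 with the most ends from 958 on in each library, the pair at the boundary and the isolated peaks. Others named at an edge or turn of a profile were chosen after their values were seen. The members and lists were chosen with earlier results of these data known. On counts simulated around a smoothed AAA profile, 500 of 500 planted peaks of at least 12 times that mean were recovered. Of planted offsets, 100 of 100 were recovered, where the second profile was a noisy copy of a shuffled stem-loop profile. Both settings are far easier than the real profiles. They check the code only and do not bear on the peaks or offsets reported here. Alternatives covered minimum counts, the boundary, the length of the repeat interval, the peak rule and the scale. No reporter sequence was used here.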

Additional observations from a re-analysis of the deposited data

How the results depend on the processing

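Among 71 alternatives, 20 stayed within the counting interval (for counts and folds, within a factor of 1.5; for r and offsets, at the printed value), 49 did not, and 2 reversed, meaning that a fold crossed 1 or r changed sign. The intervals are narrow at this depth, and the cause of a move was not tested unless the setting itself removes ends. No paired analysis was possible because each reporter has a single library, so leaving out replicates was not possible either. Values are given as CGA, AAA, stem loop. The share from 958 on became 0.236% and 0.115% for CGA and AAA when each position needed 10 ends, 0.216%, 0.123% and 14.1% without the top position, 0.405%, 0.589% and 16.8% with the boundary 3 nt upstream, where AAA exceeds CGA (0.688-fold for CGA over AAA in place of 1.90), and 0.174%, 0.120% and 14.3% with it 3 nt downstream. The share of these ends in the repeat interval became 56.5% for CGA under the minimum of 10, 48.5%, 4.02% and 52.4% without the top position, 54.1% for stem loop with 11 codons, and 55.64% and 55.8% for CGA and stem loop with 13. CGA over AAA in the interval was 0.624 with the boundary 3 nt upstream, a reversal, and 34.4 with it 3 nt downstream; both folds at shifted boundaries were added after seeing the data. The largest frame share past the repeat became 41.6% (frame 3 in place of frame 1) and 45.5% (frame 1) for CGA and stem loop when their top position was left out. The most frequent positions held 60.3% and 24.1% for CGA and AAA under the minimum of 10, 42.6%, 14.3% and 25.8% as the top 5, and 68.1%, 33.3% and 58.2% as the top 20. Isolated peaks numbered 26, 12 and 30 at 3 times the local median, and 1 and 5 for AAA and stem loop at 10 times. Pearson's r of CGA with AAA past the repeat became 0.22 on raw counts, 0.63 over the 112 positions with at least 10 ends in both, and 0.86 from 1030 on, a setting chosen after seeing the data. The offset of the stem-loop profile became 15 nt against CGA on raw counts, and 15 nt against both with a running mean subtracted. Restricting it to positions past the repeat, also chosen after seeing the data, left 56 and 58 nt. At offsets of 36 nt or more this restriction removes no position, so r at 56 and 58 nt could not change. Under it the raw counts gave 15 nt against CGA (r of 0.50) and 58 nt against AAA (0.41). With a running mean subtracted it gave 15 nt against both (0.44 and 0.32). Leaving the top position out of the frame 1 shares was likewise chosen after seeing the data. Few ends lie in the AAA repeat interval (456), in the window from 1246 to 1281 (106 CGA and 45 AAA), and in the window that starts at 1282 (36 and 2), which limits what these intervals can show.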
